A study of Mus musculus with 2 samples.

Results

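Transcripts that join annotated splice sites in combinations absent from the annotation were described in the adrenal gland of the young mouse, from long reads that were each assigned to a model of a whole transcript. The authors' tables label such transcript models NIC, a label of the TALON program for models whose splice sites are all annotated but are joined in a way that no annotated model has. NIC models of both libraries were joined where chromosome, strand and every intron were identical, and a joined series of introns, called an intron chain here, was kept where it had at least 5 NIC reads in either library. This gave 1086 intron chains in 847 genes, of 24361 NIC chains and of 110176 spliced chains of every label. The members were thus chosen by the number of NIC reads, and their levels are given as descriptions; the tests compare the libraries only.

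The series holds 2 libraries of 1 group, replicate 1 and replicate 2, from adrenal glands of 10-day-old B6CASTF1/J female mice, hybrids that carry 1 set of chromosomes of the reference strain's background and 1 of CAST. No treatment, mutation or second tissue is labelled, so there is no comparison between conditions, and each test below compares the reads of 2 libraries. The labels give 1 animal number in the library text of both libraries but different numbers in the tissue text. The number of mice is therefore unclear. Each test has 1 library on each side. Its p-value covers counting error of the reads only and measures no spread between libraries or between mice. After removal of spike-ins, 593165 and 772154 reads remained, of which 79.6% and 83.8% lay on spliced models, and 5 reads correspond to 8.43 and 6.48 CPM, the reads scaled to a common library total as counts per 1e6. Cortex and medulla markers were present in both libraries (Cyp11a1 with 4019 and 6682 reads, Th with 562 and 724), beside genes of other tissues at unequal levels: skeletal muscle (Acta1 with 2911 and 975 reads), liver (Alb with 2008 and 351), brown fat (Ucp1 with 1300 and 2330) and kidney (Slc34a1 with 0 and 200).

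Splicing removes introns between a donor site at the end of one exon and an acceptor site at the start of the next. A gene makes several transcripts when an exon is left out, when an intron is kept, when a donor or acceptor nearby is used, or when transcription starts at another exon. Because these choices are made along the same molecule, annotated choices can occur together in a transcript although no annotated model of the gene holds them together, and a read that spans them shows it directly.

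Of the 8 chains with the highest share of their gene, 7 left out or ran over very short annotated features, and the sequences of these features are shown first. For Mpc1, Uchl3 and Gbe1 the recorded difference from the annotated model with the most introns in common was not an exon left out alone. Each is read 5′ to 3′ from GENCODE M21 transcripts (assembly mm10). In the next 5 lines the capitals mark an annotated exon of 12 bases or fewer that the reads' chains left out, with the ends of the neighbouring exons of the annotated transcript in lower case. 
Mpc1: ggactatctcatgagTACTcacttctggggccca
Sept7: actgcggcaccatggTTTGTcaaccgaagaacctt
Phb2: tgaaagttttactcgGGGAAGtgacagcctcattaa
Uchl3: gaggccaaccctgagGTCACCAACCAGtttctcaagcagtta
Gbe1: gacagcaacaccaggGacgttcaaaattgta
These exons lie at chr17:8296527-8296530 (Mpc1), chr9:25265302-25265306 (Sept7), chr6:124716425-124716430 (Phb2), chr14:101654208-101654219 (Uchl3) and chr16:70561017-70561017 (Gbe1), each on the plus strand and inside the coding sequence of the annotated transcript. In the antizyme genes the feature is a gap. The capital letter marks a gap of 1 base between exons of an annotated model. The reads' chains kept that base inside a continuous exon. 
Oaz1: ctcggtggtgctccTgatgtccctcaccc
Oaz2: ctctgtggtgctccTgatgcccctcaccc
The base is chr10:80828295-80828295 in Oaz1 and chr9:65686272-65686272 in Oaz2, plus strand in both. Another annotated model of each gene leaves out 4 bases that end there (chr10:80828292-80828295 and chr9:65686269-65686272). At 1 and 4 bases these gaps are far shorter than annotated introns with reads. In the genes of members that kept an intron, 659 such introns had at least 64 bases. Splicing of these gaps was not tested, and the chains are not taken as new splice forms here.

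Antizymes bind ornithine decarboxylase, the enzyme that starts polyamine synthesis, and their messages are read through a ribosomal shift by 1 base at a stop codon. The Oaz1 chain of 5 exons held 814 of 869 gene reads in replicate 1 and 1262 of 1322 in replicate 2, or 93.7% (exact 95% interval 91.8 to 95.2) and 95.5% (94.2 to 96.5). At 1372 and 1634 CPM it was the member with the highest mean level. The Oaz2 chain, also of 5 exons, held 196 of 227 and 198 of 230 reads, 86.3% (81.2 to 90.5) and 86.1% (80.9 to 90.3). In neither library did a spliced annotated (Known) model of Oaz1 have a read, and the most-read one of Oaz2 had 1 and 0. In all, 12 members ran over an annotated gap of fewer than 30 bases, among them the chain of Nadk2, a mitochondrial NAD kinase, with 33 of 58 and 39 of 74 reads.

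Mpc1, a subunit of the mitochondrial pyruvate carrier, had 158 of 170 and 210 of 222 reads on a chain of 4 exons. The share was 92.9% (88.0 to 96.3) and 94.6% (90.7 to 97.2). This chain has a single intron over chr17:8283962-8296534 and so lacks the printed exon of 4 bases. In the annotated model that exon ends at chr17:8296530 and the intron after it ends at chr17:8296534. That annotated intron is thus itself a gap of fewer than 30 bases. Whether it is spliced out was not tested. It lies inside the intron of the chain and is not counted among the gaps that a chain ran over. Phb2, a prohibitin of the inner mitochondrial membrane, had 231 of 262 and 327 of 345 reads on a chain without the 6-base exon, 88.2% (83.6 to 91.8) and 94.8% (91.9 to 96.9). Sept7, a septin of the cytoskeleton, had 80 of 90 and 87 of 100 reads without the 5-base exon, 88.9% (80.5 to 94.5) and 87.0% (78.8 to 92.9). The intervals of the libraries overlapped for Mpc1 and Sept7 and lay just apart for Phb2, whose difference did not pass Fisher's exact test (Benjamini-Hochberg adjusted p = 0.17). Uchl3, a ubiquitin hydrolase, had 45 of 52 and 61 of 71 reads on its chain without the 12-base exon. Gbe1, the glycogen branching enzyme, had 22 of 26 and 26 of 32 reads on a chain without the 1-base exon. Of the 8 members with the highest mean share of gene reads, these 5 and both antizymes make 7. The remaining one was a chain of 3 exons in a gene with no annotated model, with 55 of 67 and 93 of 106 reads.

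**Figure D1:**
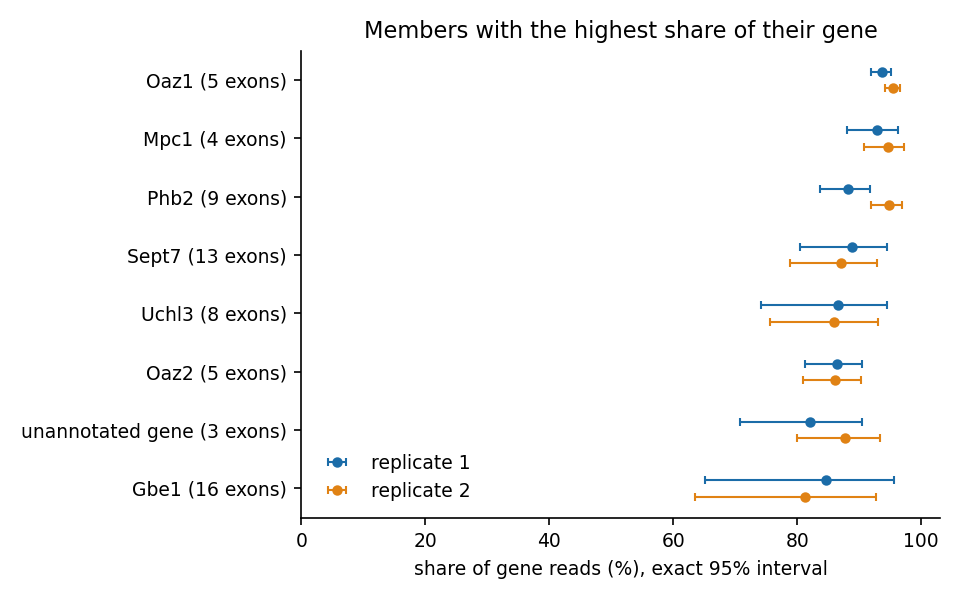
Share of gene reads (percent, horizontal axis) of the 8 members with the highest mean share among genes with 20 or more reads in each library; points are libraries and bars exact 95% intervals. All 8 lie above 80% in both libraries, and 7 of them leave out an annotated exon of 12 bases or fewer or run over an annotated gap of at most 4 bases.

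Across the members of genes that had 20 or more reads in both libraries, 53 of 902 spanned an annotated exon of 15 bases or fewer or an annotated gap of fewer than 30 bases. Among those with a mean share of 50% or more they were 10 of 23 (43.5%), and among the rest 43 of 879 (4.89%); the rule did not use these features, and the share was not tested against them. Such exons were also rare in the reads over all genes, the genes of members included. Of 94 annotated internal exons of 15 bases or fewer that 10 or more reads covered, in any gene with 20 reads in each library, 4 were carried by at least 1 read (Abi1, Col5a2, Dnm2 and Sptan1, named because they are so few). Of the 94, 39 lay in genes with a member, and 2 of these 39 were carried. By length, 0 of 8 exons of 1 to 3 bases were carried by a read, 4 of 86 of 4 to 15 bases (4.65%), 28 of 61 of 16 to 20 bases (45.9%), 255 of 304 of 21 to 30 bases (83.9%), 1590 of 1691 of 31 to 50 bases (94.0%) and 13230 of 13619 of 51 to 100 bases (97.1%). In Dnm2, a dynamin, the 12-base exon at chr9:21490658-21490669 was carried by 31 and 45 reads and spanned without it by 49 and 44. The files hold models and not read letters, so whether the bases of a missing short exon were in the molecules was not tested.

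**Figure D2:**
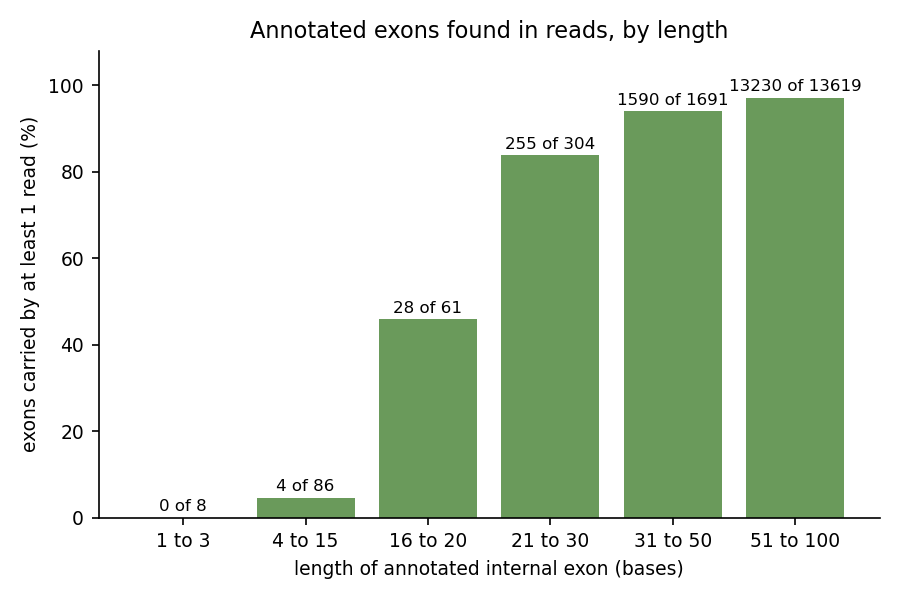
Percent of annotated internal exons carried by at least 1 read of either library (vertical axis) by exon length (horizontal axis, bases), for exons covered by 10 or more reads in genes with 20 or more reads in each library. The numbers above the bars give exons carried of exons covered: 0 of 8 at 1 to 3 bases, 4 of 86 at 4 to 15 bases and 97.1% at 51 to 100 bases.

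By class against the annotated models of the same gene, exon skipping took in 101 members in 96 genes (an intron in no annotated model that joins the start of 1 annotated intron to the end of a later one), or 9.30% of the members. Intron retention, where an exon swallows an annotated intron that no annotated exon of the gene contains, took in 88 members in 64 genes. The other 897, in 717 genes, were other new pairings. No member met both of the first definitions. Among the other new pairings, 732 consisted of annotated introns only, in a new combination; 28 had a new intron between sites of the gene, 11 used a site annotated in another gene only, and 126 used a site annotated in no gene. Members of genes with 20 reads in each library held a median mean share of 8.55% of the reads of their gene (middle 50% of members from 3.72 to 16.4%). The median was 4.79% for exon skipping, 2.12% for intron retention and 9.78% for other new pairings. In 179 of all 1086 members the chain was the most-read spliced chain of its gene in both libraries. This count has no minimum on the reads of the gene, and ties count as most-read.

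**Figure D3:**
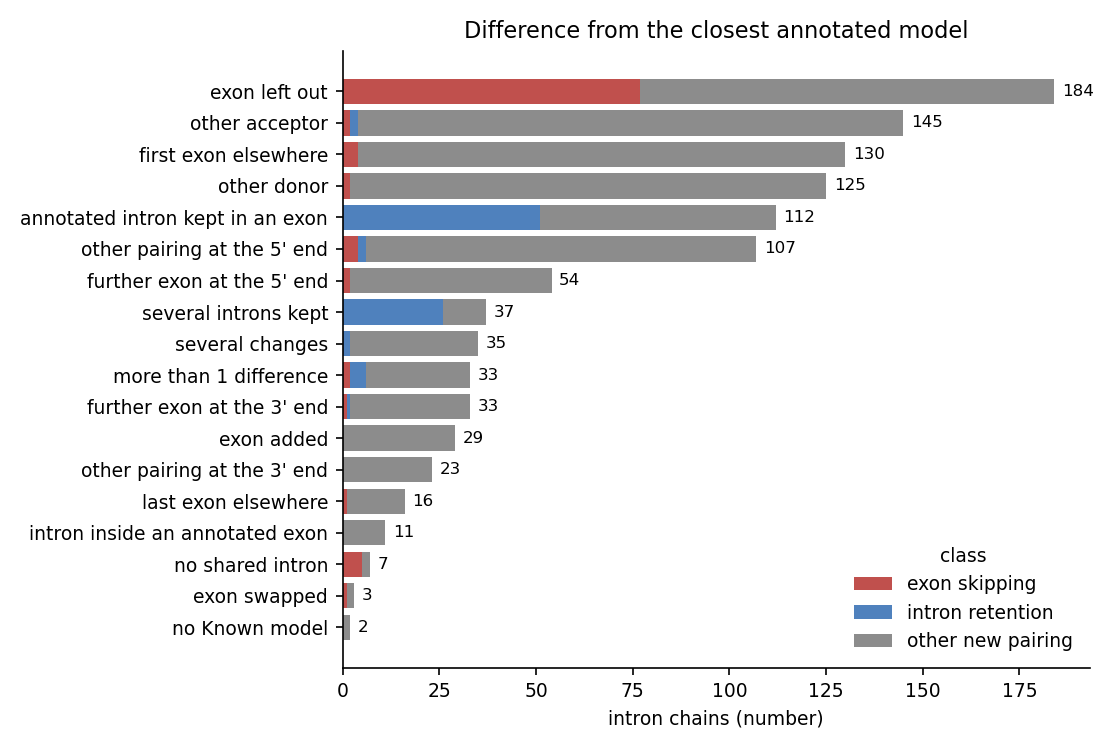
Number of members (horizontal axis) by the way they differ from the annotated model of the gene with the most introns in common, coloured by class. An exon left out (184), another acceptor (145), a first exon elsewhere (130) and another donor (125) were the most frequent single differences.

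All reads of the member chains, under any label, were 11430 in replicate 1 and 14347 in replicate 2, or 1.93% (1.89 to 1.96) and 1.86% (1.83 to 1.89) of all reads, with a mean of 1.89% ± 0.0487 (SD, n = 2). The difference of 0.0689 percentage points had a two-sided p of 0.00338 in Fisher's exact test, on the same reads that chose the members, so it supports nothing about them. Without the members that have an unannotated site, the shares were 1.502% and 1.534%, with replicate 2 the higher (Fisher's exact test, p = 0.138). NIC chains of every read number held 4.35% and 4.02% of reads, and spliced Known models 62.1% and 68.2%. Of the 674 NIC chains with 5 or more reads in replicate 1, 660 (97.9%) had at least 1 read in replicate 2. Of the 958 in replicate 2, 911 (95.1%) had at least 1 in replicate 1. For Known chains these shares were 99.2% and 98.2%. With 5 or more reads required in the other library too, the shares were 73.3% and 51.6% for NIC chains. For Known chains they were 91.3% and 81.7%, with read numbers not matched. Among chains with 10 or more reads in the first library, the shares were 93.4% and 87.4% for NIC and 98.3% and 95.3% for Known. Among chains with 5 to 9 reads there, they were 63.1% and 33.8% for NIC and 76.8% and 48.1% for Known. At the threshold, 264 members had 5 NIC reads in their deeper library, with 0 to 5 in the other, and 489 chains just outside had 4, with 0 to 4 in the other.

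The label itself did not hold for every member. In 131 members at least 1 splice site was annotated in no gene, against the meaning of NIC, at a median distance of 21 bases from the nearest annotated site of the same kind on that strand. In 123 of these the same library held a model labelled NNC, the label for models with a site outside the annotation, with the same site and a lower model number. The label also changed between libraries: 78 of the 131 were NNC in the other library, while 873 of the 955 members with annotated sites throughout were NIC in both. Reads of a chain were therefore summed over labels.

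Exon skipping removed 100 distinct stretches of exon, 91 of them 1 exon, 7 of them 2 and 2 of them 3; 42 lay at the second exon, 41 at an inner exon and 17 next to the last. The skipped stretches had a median length of 103.5 bases, beside 120 bases for 705 annotated internal exons with reads in the same genes. Of the 62 stretches of 1 exon that were wholly coding, 32 (51.6%) had a length divisible by 3 and so kept the reading frame, beside 238 of 607 (39.2%) annotated internal coding exons of these genes. Of the stretches, 7 were no longer than 15 bases, in Mpc1, Sept7, Tnni2, Tnni1, Cir1, Map4k5 and Pitpnc1, and for these 404 and 422 reads left the exon out while 0 and 0 carried it. Over the 58 longer stretches with 20 reads in each library, a median of 4.51% of reads left the exon out. The highest level was 89.1%, for Slc27a1.

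Slc27a1, a fatty acid transporter, left out a 117-base exon of a non-coding annotated model (chr8:71570196-71570312) in 29 and 28 reads and included it in 4 and 3, so that 87.9% and 90.3% left it out. Slc8b1, the mitochondrial sodium-calcium exchanger, left out 333 coding bases of 3 exons (chr5:120523999-120525800) in 16 and 41 reads and included them in 8 and 16, 66.7% and 71.9% without them. Each level sets reads with the new intron against reads with both flanking annotated introns, so it is not a share of all reads of the gene. For Slc8b1 the exons between the flanking introns were not checked. Idh3b, a subunit of NAD-dependent isocitrate dehydrogenase, left out a 171-base exon in 48 and 24 reads and included it in 26 and 33, so that 64.9% and 42.1% left it out. The skipping chain of Idh3b had 38 of 565 and 24 of 914 reads of the gene. Its share of 6.73% in replicate 1 (4.80 to 9.11) lay above that of 2.63% in replicate 2 (1.69 to 3.88) with intervals apart, but the difference in the share of gene reads was under 10 percentage points (adjusted p = 0.0368, Fisher's exact test with Benjamini-Hochberg adjustment). Mrps17, a mitochondrial ribosomal protein, left out an 80-base exon of the 5′ untranslated region on 11 of 92 and 14 of 158 reads of the gene. Sod2, the mitochondrial superoxide dismutase, left out a 117-base coding exon with 1 and 5 reads, 0.26% and 0.832% of the gene, the only member among 19 antioxidant genes with 20 reads in each library.

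Intron retention involved 107 distinct introns with a median length of 775 bases, beside 767 bases for 659 annotated introns with reads in the same genes. Of the 107, 93 were inner introns, 10 the first and 4 the last, and 84 lay between coding exons. The 659 held 519 inner, 95 first, 81 last and 14 only introns, some counted at more than 1 position, so most were inner there too. Over the 68 with 20 reads in each library, a median of 7.41% of reads kept the intron (6.37% in replicate 1 and 8.54% in replicate 2). These levels count removal by the exact intron only, and annotated introns can overlap. In Alas1, which makes the enzyme that opens heme synthesis, 20 and 25 reads kept an intron of 1260 bases and 0 and 0 removed it. An overlapping Alas1 intron of 1366 bases with the same first base was kept by 15 and 25 reads and removed by 694 and 977, so that 2.12% and 2.50% kept it. In Rbm39, a splicing factor, 28 and 36 reads kept an intron of 973 bases and 3 and 4 removed it. For the overlapping Rbm39 intron of 1494 bases with the same last base, 38 and 26 reads removed it, and 42.4% and 58.1% kept it. In Vegfa, the vascular growth factor, 17 and 20 reads kept an intron of 1716 bases between coding exons and 47 and 54 removed it, so that 26.6% and 27.0% kept it. In the RNA helicase Ddx39b the reads were 34 and 26 with an intron of 2177 bases and 83 and 98 without. The splicing factor Srsf7 kept 1377 bases in 5 and 11 reads and removed them in 17 and 13, or 22.7% and 45.8%. An overlapping Srsf7 intron of 1386 bases with the same first base was removed by 27 and 40 reads, so that 15.6% and 21.6% kept it. Another of 1410 bases was removed by 6 and 8 reads. The Srsf7 level and its gap between the libraries thus depend on the intron chosen. Alas1, Rbm39, Ddx39b and Srsf7 were picked after their values were seen.

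Genes of steroid synthesis held 29 members in 5 of 17 genes with 20 reads in each library, and 14 of the 88 retention members lay in 1 gene. Cyp21a1 (chromosome 17, minus strand), the steroid 21-hydroxylase, had 19 members, 14 of them intron retention, 2 exon skipping and 3 other pairings, which together held 169 of 2354 and 217 of 3609 reads (7.18% and 6.01%). Its most-read member kept an intron of 105 bases with 22 and 36 reads, 0.935% (0.587 to 1.41) and 0.998% (0.700 to 1.38), and the next kept one of 68 bases with 28 and 25 reads. Another kept introns of 86, 105 and 64 bases on the same reads, 20 and 18 in number. Over all Cyp21a1 chains, 117 and 155 reads kept the 105-base intron (5.50% and 4.59%), and 205 and 329 kept the 64-base intron (9.79% and 9.81%). With reads of Known and NIC models only, the levels were lower. For the 105-base intron 91 and 74 reads kept it (4.73% and 2.45%), and for the 64-base intron 68 and 82 (3.54% and 2.72%). The exons left out in its skipping members were of 96 and 90 bases, both multiples of 3 and both coding. They are printed in capitals, with the exon ends beside them in lower case, the former at chr17:34803348-34803443 and the latter at chr17:34804044-34804133.
Cyp21a1, 96 bases: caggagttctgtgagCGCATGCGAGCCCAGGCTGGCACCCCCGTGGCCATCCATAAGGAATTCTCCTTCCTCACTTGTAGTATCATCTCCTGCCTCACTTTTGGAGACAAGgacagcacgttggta
Cyp21a1, 90 bases: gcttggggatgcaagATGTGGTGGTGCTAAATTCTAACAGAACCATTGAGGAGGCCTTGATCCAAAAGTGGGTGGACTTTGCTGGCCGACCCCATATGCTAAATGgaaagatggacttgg
The chain without the 96-base exon had 6 and 19 reads and that without the 90-base exon 4 and 14, so that skipping stayed under 1% of the gene's reads in both libraries. The pseudogene Cyp21a2-ps is a near-identical copy, and its most-read member, a retention chain, had 21 of 83 and 32 of 104 reads (25.3% and 30.8%), so the split of reads between these genes is uncertain. Cyp11a1, the side-chain cleavage enzyme that begins steroid synthesis, had 6 members, 5 of them retention. The main one kept an intron of 478 bases (chr9:58025607-58026084) in 30 of 4019 and 45 of 6682 reads, 0.746% and 0.673%; of the spliced reads of the gene alone this is 1.76% and 1.73%. Over all chains, 74 and 118 reads kept this intron and 1599 and 2455 removed it, 4.42% and 4.59%. Cyp11b1 had 2 members with 8 and 13 reads together and Cyp11b2, the aldosterone synthase, 1 with 2 and 5. In the medulla, Th, the tyrosine hydroxylase of catecholamine synthesis, kept an intron of 331 bases (chr7:142896080-142896410) on a member chain with 9 of 562 and 2 of 724 reads, 1.60% (0.735 to 3.02) and 0.276% (0.0335 to 0.994); the intervals overlapped (adjusted p = 0.33, Fisher's exact test with Benjamini-Hochberg adjustment). Over all Th chains, 17 and 8 reads kept this intron and 516 and 686 removed it, 3.19% and 1.15%.

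Neighbouring splice sites made up the next large group. In 145 members the only difference from the closest annotated model was an acceptor, and in 74 of these the acceptors lay exactly 3 bases apart; in 125 it was a donor, and 1 of these lay 3 bases away. The median distance was 3 bases for acceptors and 57 for donors. Over all genes with 20 reads in each library, 344 of 2922 pairs of annotated acceptors with 1 donor and overlapping exons (11.8%) lay 3 bases apart, and their median distance was 37 bases; this is a description beside the members and was not tested. The 3 bases either end the intron or begin the exon. At the 49 coding sites they add or remove 3 bases of coding sequence and leave the frame as it is. They are printed in capitals for the 5 coding sites whose members had the highest levels, with the last 12 bases of the exon before and the 12 that follow in lower case.
Ctbp1: ggctgcctacagCAGgtaccctccagg
H2afy: cggaagtctaagAAGaagcagggagaa
Aes: tccatcatccgaCAGcagctccaggct
Hgs: ccctttagtgagCAGtaccagaatggg
Tcf3: ctccatggcctgCAGagcaagatggag
They lie at chr5:33248684-33248686 (Ctbp1, minus strand), chr13:56096232-56096234 (H2afy, minus), chr10:81565472-81565474 (Aes, plus), chr11:120479087-120479089 (Hgs, plus) and chr10:80415521-80415523 (Tcf3, minus). The 74 members shared 68 sites in 68 genes. For 64 sites an annotated transcript held the bases, and they read CAG in 49, TAG in 8, AAG in 7 and GAG in 0. Since the same bases end the intron when the second acceptor is used, AG at the end is what any intron with the usual acceptor would give, and only the base before it varies.

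**Figure D4:**
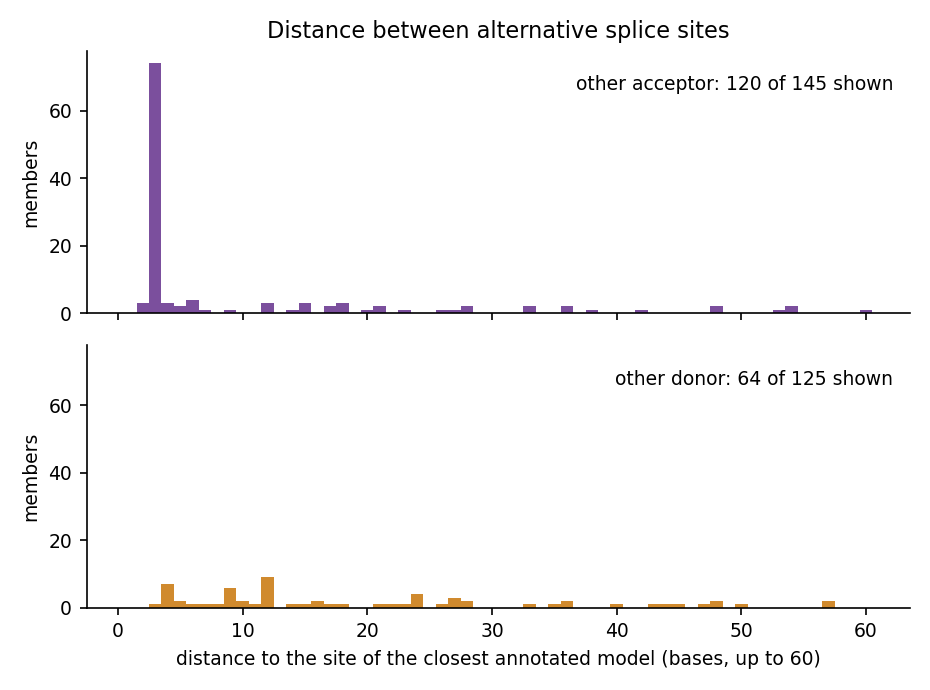
Number of members (vertical axes) by distance in bases (horizontal axis, up to 60) between the site used and that of the closest annotated model, for acceptors (top, 120 of 145 shown) and donors (bottom, 64 of 125 shown). Acceptors peak at 3 bases with 74 members, where donors have 1.

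At the 54 of these sites with 20 reads in each library, a median of 60.1% of reads included the 3 bases, from 6.06% to 94.8% between sites, while the 2 libraries differed by a median of 5.80 percentage points at a site. In Ctbp1, a transcriptional corepressor, 211 and 258 reads included the printed triplet and 46 and 47 lacked it (82.1% and 84.6% with it). The Ctbp1 chain, with 138 of 266 and 204 of 316 gene reads, held 51.9% (45.7 to 58.0) and 64.6% (59.0 to 69.8) and was the most-read spliced chain of the gene in both libraries (adjusted p of the difference between libraries = 0.125, Fisher's exact test with Benjamini-Hochberg adjustment). In Aes, a corepressor of the Groucho family, 91.8% and 93.9% of reads included the triplet. In H2afy, which encodes the histone variant macroH2A1, the share was lower at 34.2% and 39.7%. In Hgs, an endosomal sorting protein, it was 21.1% and 30.6%, and in the transcription factor Tcf3 it was 58.9% and 57.6%. Sites thus differed more from one another than the libraries did at a site. Cars2, a mitochondrial tRNA synthetase whose site lies at chr8:11530425-11530427, included its triplet in 23.1% and 25.9% of reads.

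Donors farther away, and sites outside the annotation, marked several genes with many members. Cdkn1c, an imprinted inhibitor of the cell cycle that is known for its role in adrenal growth, had 8 members that together held 283 of 542 and 342 of 612 reads, 52.2% and 55.9%. Its main member used a donor 36 bases from the annotated pairing (between chr7:143459758 and chr7:143459794) and held 134 and 153 reads, 24.7% (21.1 to 28.6) and 25% (21.6 to 28.6), with intervals that overlapped almost wholly. Another Cdkn1c chain, with 60 and 62 reads, used a site annotated in no gene, 3 bases from an annotated one. Crat, carnitine acetyltransferase, had 94 of 335 and 159 of 434 reads on a chain with a donor 117 bases away, 28.1% and 36.6%. Hnrnpk, an RNA-binding protein of the splicing machinery, had 5 members with 133 of 353 and 175 of 393 reads together, the main one, at 70 and 94 reads, with a site annotated in no gene 16 bases from an annotated site.

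First exons elsewhere were joined to known downstream introns in 130 members. Cyb561, the cytochrome of chromaffin granules that supplies electrons for noradrenaline synthesis, had 93 of 162 and 113 of 219 reads on a chain of 6 exons that starts at a different 65-base exon (chr11:105940100-105940164), 57.4% (49.4 to 65.1) and 51.6% (44.8 to 58.4). This chain was labelled an incomplete match (ISM) in replicate 1 and NIC in replicate 2. Its most-read Known model had 16 and 37 reads, and the new combination was the most-read spliced chain of the gene in both libraries. Aldoa, aldolase of glycolysis, had 134 of 1453 and 113 of 2117 reads with a different start, 9.22% (7.78 to 10.8) and 5.34% (4.42 to 6.38); its intervals did not overlap, and the adjusted p was 0.00374 with a difference under 10 percentage points (Fisher's exact test with Benjamini-Hochberg adjustment). Gnas, the imprinted gene of the stimulatory G protein, had 45 of 1720 and 84 of 2365 reads on its main member, 2.62% and 3.55%. Cd47, a cell-surface ligand that restrains phagocytosis, had 50 of 92 and 82 of 120 reads on a recombined chain without a 63-base coding exon (chr16:49869018-49869080), 54.3% and 68.3%, and was picked after its values were seen. The exon, in capitals, leaves the frame intact when it is left out.
Cd47: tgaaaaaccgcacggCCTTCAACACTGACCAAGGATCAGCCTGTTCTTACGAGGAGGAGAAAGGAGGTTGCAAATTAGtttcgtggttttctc

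The share of each chain among the reads of its gene was compared between the libraries by Fisher's exact test over 7786 chains of every label with 10 or more reads summed and 20 or more gene reads in each library. A chain was called at a Benjamini-Hochberg adjusted p under 0.05 and a difference of at least 10 percentage points. Of the 612 members tested, 3 were called (0.49%), beside 30 of all 7786 chains (0.385%) and 23 of 5671 Known chains (0.406%), so the share among members was near the background. By direction, 2 members were higher in replicate 1 (0.327%) and 1 in replicate 2 (0.163%), beside 0.0642% and 0.321% of all chains and 0.0353% and 0.37% of Known chains. With no minimum difference, 5 members passed (0.817%), beside 0.783% of all chains and 0.758% of Known chains. The 3 called members each contained a site annotated in no gene. The 2 with the smallest p are chains of the same gene, Atp2a1, called in opposite directions. As shares of the same gene total they are not independent of each other. Among the 534 tested members with annotated sites throughout, Fisher's test called 0, with 43 at an unadjusted p under 0.05 and 2 at an adjusted p under 0.05 with no minimum difference; the exact binomial test called 0, with 25 at an unadjusted p under 0.05. The median absolute difference between libraries was 2.94 percentage points for members and 5.13 for Known chains. Such a difference depends on the size of the share, and the shares were not matched, so these medians do not compare how well the libraries agree.

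The 2 calls with the smallest p were in Atp2a1 (chromosome 7, minus strand), the calcium pump SERCA1 of fast skeletal muscle, whose message in muscle changes with age by inclusion of an exon of 42 bases near its end. The chain of 22 exons, which includes that exon, had 844 of 1444 reads in replicate 1 and 727 of 864 in replicate 2, 58.4% (55.9 to 61.0) and 84.1% (81.5 to 86.5), adjusted p = 2.99e-36 by Fisher's exact test. The chain of 21 exons, which lacks it, had 382 and 48 reads, 26.5% (24.2 to 28.8) and 5.56% (4.12 to 7.30), adjusted p = 5.82e-37 by Fisher's exact test. Over all spliced reads that covered the exon (chr7:126446545-126446586), 924 included it and 411 lacked it in replicate 1 (69.2% with it), and 780 and 55 in replicate 2 (93.4%), with p = 6.0e-46 by Fisher's exact test on the same reads. Replicate 1 was lower in the exon on each measure. Both chains also use a splice site annotated in no gene, 26 bases from an annotated one (intron chr7:126462188-126462778), which spans an annotated 18-base exon that 0 reads carried and 1350 and 827 reads spanned. Each chain was labelled NIC in 1 library and NNC in the other. Skeletal muscle markers differed between the libraries too. Of 7, 6 were higher in replicate 1 by CPM, among them the actin Acta1 at 4908 and 1263 CPM and Ckm at 1902 and 995. Of the myosins, Myh1 had 510 and 47 reads, Myh2 104 and 4, the perinatal Myh8 83 and 6 and the embryonic Myh3 5 and 1, while Myh4 was higher in replicate 2 with 5 and 147. Their part in the result was not tested, and fewer muscle cells cannot be told apart from less RNA per cell in bulk tissue.

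The third call was in Bin1 (chromosome 18, plus strand), a membrane-bending protein with muscle and nerve forms. The chain adds an exon of 45 bases with unannotated sites (chr18:32423242-32423286) and had 20 of 84 and 2 of 65 reads, 23.8% (15.2 to 34.3) and 3.08% (0.375 to 10.7), adjusted p = 0.0435 (Fisher's exact test with Benjamini-Hochberg adjustment). With the exact binomial test the adjusted p was 0.185, and with no minimum on the reads of a chain it was 0.356, so this call did not hold under either. The muscle gene Tnni2, troponin I of fast fibres, had 90 of 130 and 65 of 82 reads on its chain without a 7-base exon, 69.2% (60.5 to 77.0) and 79.3% (68.9 to 87.4), with no call (adjusted p = 0.708, Fisher's exact test). The slow fibre gene Tnni1 had 19 of 21 and 1 of 2 reads on a chain without a 4-base exon.

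**Figure D5:**
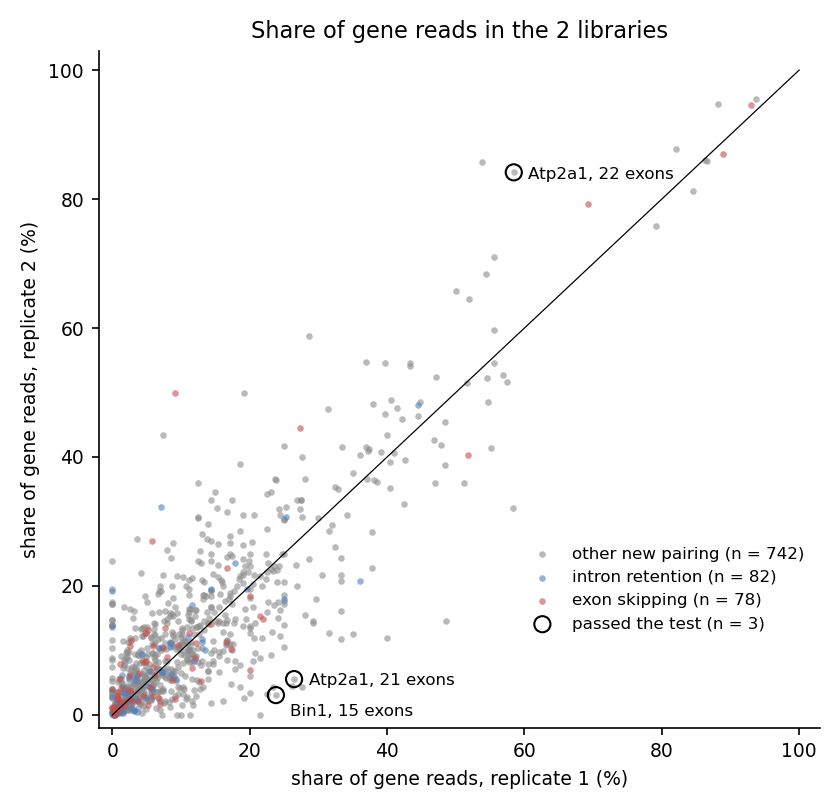
Share of gene reads in replicate 1 (horizontal axis, percent) and replicate 2 (vertical axis, percent) of the 902 members in genes with 20 or more reads in each library, coloured by class, with the line of equal shares. Circles mark the 3 members that passed the test, of which the Atp2a1 chain of 22 exons lies above the line and the Atp2a1 chain of 21 exons and Bin1 lie below it.

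The gene lists are given by how many of their genes with 20 reads in each library had a member, beside 672 of 4880 genes (13.8%) with a median of 106 reads summed over the libraries. Splicing factors had members in 11 of 30 genes (36.7%; median 145.5 reads), namely Srsf1, Srsf2, Srsf3, Srsf4, Srsf5, Srsf7, Hnrnpa2b1, Hnrnpk, Hnrnpu, Clk4 and Rbm39, and 9.09% and 9.36% of the reads of the 30 genes lay on members. The Srsf5 chain that keeps 1229 bases had 20 of 105 and 30 of 135 reads. Striated muscle genes had members in 5 of 12, steroid synthesis in 5 of 17 (median 414 reads), imprinted genes in 2 of 8, chromaffin genes in 3 of 14, fat genes in 2 of 10 and noncoding host genes in 1 of 4 (Gas5, with 4 and 8 reads). Ribosomal protein genes had members in 3 of 79 (3.80%) at a median of 473 reads, and 0.0949% and 0.114% of their reads lay on members. Respiratory chain genes had members in 10 of 88 (11.4%) at a median of 1014.5 reads, with 0.318% and 0.228% of reads. One of them, Ndufs1 of complex I, had 62 of 320 and 61 of 370 reads on 1 member and 32 and 41 on another, each with another pairing at the 5′ end. The counts were not adjusted for the reads of the genes.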

How the data were processed

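Long-read RNA libraries of adrenal tissue, 2 in 1 group, were used. The authors deposited counts (whole numbers of reads for every model, not normalized) and 1 annotation of models per library, which names TALON as its source. Per the notes deposited with the files, the assembly was mm10 and the annotation GENCODE M21. No source read here names the aligner, the platform or tool versions. Members and gene lists were chosen with earlier results of these data known.

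Spike-in reads were left out (13512 and 16500). Levels are reads of a chain under any label. CPM is relative to the remaining reads, and a count of 0 allows up to 5.06 and 3.89 CPM (3 counts). Shares carry exact Clopper-Pearson 95% intervals, which cover counting error only, since reads need not be independent molecules. All 141862 annotated models had the same exons in the GENCODE release. The subclass for sites annotated in no gene was added after such sites were seen in the data. The test of chain shares and the classes were tested on simulated data. Python 3.11.15, pandas 2.3.3, SciPy 1.17.1, NumPy 2.4.6 and matplotlib 3.10.9 were used. The naming rule took the 8 members with the highest level in each class, the 8 with the highest share of gene reads, called members (up to 10) and up to 3 per gene list. Genes outside it were picked after their values were seen, among them Tnni1, Cir1, Pitpnc1, Alas1, Ddx39b, Rbm39, Srsf7, Cd47, Nadk2, Crat, Dnm2, Cyp11b1, Cyp11b2 and, as the highest of the 3-base sites, H2afy, Aes, Hgs, Tcf3 and Cars2. Alternatives changed the minimum of reads, the denominator, the test, the models behind the classes and the libraries. Splice dinucleotides were not examined, as no genome sequence was used.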

Additional observations from a re-analysis of the deposited data

How the results depend on the processing

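The number of members followed the minimum of reads: 2551 at 3 reads, 341 at 10 and 423 at 5 in each library, and 629 to 880 without 1 replicate. Under the same settings exon skipping counted 296, 23, 30 and 46 to 85, intron retention 269, 29, 31 and 50 to 69, and other new pairings 1986, 289, 362 and 533 to 726. Against Known models with reads only, exon skipping counted 169, and 158 of 1086 members changed class. The mean share of reads, 1.89%, was 2.40% at 3 reads, 1.36% at 10, 2.32% of spliced reads, 1.71% with only the NIC-labelled reads of members counted, 1.52% without members that have an unannotated site and 1.59 to 1.63% without 1 replicate. Without the unannotated sites the difference between replicates turned to -0.0314 percentage points (Fisher's exact test, p = 0.138).

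Of members, 5 were called with no minimum difference and 0 without unannotated sites. Of chains of every label, 13 were called with no minimum on the chain, 18 of spliced reads, 61 with no minimum difference and 10 by the exact binomial test. Both Atp2a1 chains stayed called in the 5 alternatives of the test, and Bin1 lost its call in 2. The median level of skipping, 4.72%, was 3.48 to 5.10% without 1 replicate. Among named members, the shares of Atp2a1 (21 exons), Bin1, Cidea, Fabp4, Idh3b, Rpl22l1, Sod2 and Th moved by over 1.5 times without 1 replicate. Without Cyp21a1, Cyp21a2-ps, Entpd4 and Entpd4b, which have near-identical copies, 1062 members remained, 69 of them retention. The library test needs both libraries, so it could not be run without a replicate. No paired analysis was possible because there is 1 group. Depth limits members near 5 reads most.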
